A study of Mus musculus with 6 samples.

Results

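The transcripts of 7 genes, *Cd47*, *Sirpa*, *Cd24a*, *Siglecg*, *Lgals1*, *Lgals3* and *Lgals9*, were followed through cells of CT26 tumors enriched for CD45. They were chosen by name, as the do-not-eat-me ligands, their receptors and the galectins, from the 31053 genes counted, and all 7 passed the filter on low values used below. CT26 is a mouse colorectal carcinoma line grown under the skin of Balb/c females, and tumors were taken 5 days after treatment with vehicle or with a PD-1 GITR-L bispecific antibody, which joins a PD-1 antibody to the ligand of the costimulatory receptor GITR. Leukocytes were enriched by positive selection for CD45 and sequenced as single cells with droplet 3′ chemistry, in 2 vehicle, 2 low dose and 2 high dose tumors. The high dose was 30 mg/kg, and for the low dose the sample labels conflict, with 10 mg/kg in the treatment protocol but 30 mg/kg among the characteristics. The published description of the single-cell experiment names an isotype control and a single dose that differs from these. All 3 groups carried the same tumor line and went through the same enrichment, and all tumors were grown from 1 implanted cell line.

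The count table holds 33961 cells in 4 libraries, named M1, M2, M5 and M6, and no label ties a library to a tumor or a treatment. Vehicle and bispecific could therefore not be compared here, libraries are given one by one, and no p-value is given. The libraries held 10294, 8940, 7160 and 7567 cells in the order above, with median depths between 11399 and 21800.5 UMIs (unique molecular identifiers, one per captured transcript) per cell. M1 and M2 stood apart from M5 and M6 in make-up, since 61.2% and 57.1% of their cells carried the authors' label Stroma, against 27.2% and 30.9%. Among the cells, 111 barcodes occurred in 2 libraries (222 cells). Of the 12 cell types annotated in the deposited table, 10 hold at least 100 cells. The markers of Myeloid, DC (dendritic cell), B cells and Stroma were highest under their own label in every library. Those of T cells did not separate T cell EFF, T cell MEM, T cells and NKT, whose summed *Cd3d*, *Cd3e*, *Cd3g* and *Trac* lay between 3171 and 3527 CPM. The regulatory T cell genes *Foxp3*, *Ctla4* and *Ikzf2* together were highest in T cells (2365 CPM) and NKT (2259 CPM), and the NK cell genes *Ncr1*, *Klrb1c*, *Eomes* and *Gzma* in NK cells (16010 CPM) and ILC (8374 CPM), with 376 CPM in NKT. Stroma, the largest label with 15687 cells, lacked the defining transcript of the enrichment: *Ptprc*, which encodes CD45, stood at 7.47 CPM there (UMIs of a gene per 1000000 UMIs, summed over the cells of a label), against 1240 CPM in NK cells. None of the 12 labels names tumor cells. Whether cells labelled Stroma were stromal cells or the implanted CT26 cells was not tested.

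A do-not-eat-me signal is a surface protein that holds off phagocytosis. CD47, carried by most cells, engages SIRPα on macrophages and dendritic cells, which recruits the phosphatases SHP-1 and SHP-2. CD24 is a small glycosylated surface protein bound by inhibitory Siglecs, Siglec-10 in humans and Siglec-G in mice. Galectins are secreted lectins that crosslink glycoproteins: galectin-1 restrains T cells, galectin-3 is abundant in macrophages and galectin-9 binds TIM-3 among other receptors.

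The 7 genes lie on 7 chromosomes. In GRCm38, *Cd47* spans chr16:49800533-49915010, *Sirpa* chr2:129592835-129632228, *Cd24a* chr10:43578284-43584265, *Siglecg* chr7:43408204-43418358, *Lgals1* chr15:78926725-78930465 and *Lgals3* chr14:47367751-47386160, all on the plus strand. *Lgals9* spans chr11:78962974-78984946 on the minus strand. All 7 are annotated as protein-coding in GENCODE. Counts are given per gene, so isoforms were not separated.

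RefSeq upstream windows (GRCm38.p6) were at hand for 4 of the 7, *Cd47*, *Siglecg*, *Lgals3* and *Lgals9*. The 200 bases that end 51 bases before the annotated start are shown for the member with the most even and the member with the least even levels across labels, with CpG dinucleotides in capitals. The *Cd47* window is chr16:49855404-49855603 and the *Siglecg* window chr7:43407989-43408188, both on the plus strand. GENCODE places the *Cd47* window inside the gene but in none of its exons, and the *Siglecg* window before the gene.
Cd47: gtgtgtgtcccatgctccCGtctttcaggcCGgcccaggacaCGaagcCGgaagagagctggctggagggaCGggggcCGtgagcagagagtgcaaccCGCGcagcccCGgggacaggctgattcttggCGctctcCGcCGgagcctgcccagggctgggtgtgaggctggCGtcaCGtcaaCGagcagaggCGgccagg
Siglecg: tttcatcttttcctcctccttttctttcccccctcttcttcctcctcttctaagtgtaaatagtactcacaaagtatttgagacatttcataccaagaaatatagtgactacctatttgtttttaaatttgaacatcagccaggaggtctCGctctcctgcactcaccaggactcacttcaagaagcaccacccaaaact
The *Cd47* stretch held 16 CpG and the *Siglecg* stretch 1, against a median of 4 over 32851 such windows, of which 15.9% had at least 16. *Lgals3* had 8 and *Lgals9* 3. *Lgals9*, which like *Cd47* was found at a similar level under every label, was below the median. *Cd47* and *Siglecg* each had 2 windows, of which the first listed was used. Whether CpG content goes with breadth was not tested.

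*Cd47* was found under every label. Its level differed 2.18-fold between the highest and the lowest of the 10 labels, 890 CPM in NK cells and 409 CPM in B cells. In NK cells it was 855 CPM (M1), 826 (M2), 925 (M5) and 921 (M6). ILC (innate lymphoid cells) followed at 795 CPM, T cell MEM at 763, DC at 736, NKT at 696, T cell EFF at 667, T cells at 568, Myeloid at 499 and Stroma at 433. NK cells were above ILC in all 4 libraries, but the libraries' ranges overlapped, as they did between every pair of neighbours in this order except Myeloid and Stroma. Stroma stayed between 423 and 444 CPM and Myeloid between 465 and 530 CPM. With each cell thinned to 2000 UMIs, to make shares comparable between depths, 81.5% of NK cells carried a *Cd47* UMI (exact binomial 95% interval 80.3 to 82.6), and 50.9% of B cells did (41.3 to 60.5). These intervals cover counting error only.

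*Sirpa*, the receptor of CD47, was a Myeloid transcript. It stood at 178 CPM (M1), 230 (M2), 278 (M5) and 274 (M6), and Myeloid cells, 7.89% of all cells, held 69.4% of its 13408 UMIs. DC, the next label, had 30.0, 27.3, 51.8 and 50.1 CPM. Every Myeloid value lay above every DC value, with a pooled ratio of 6.30. M5 and M6 were above M1 and M2 in both labels. ILC (27.4 CPM), T cell MEM (25.4) and T cell EFF (14.3) came next and overlapped each other. The others of the 10 labels were below 7 CPM, and Stroma had 1.03 CPM. Thinned, 35.3% of Myeloid cells (33.5 to 37.2), 7.42% of DC and 0.243% of Stroma cells carried a UMI. The summed Myeloid list (*Csf1r*, *Adgre1*, *C1qa*, *Lyz2* and *Itgam*) stood in ILC at 8.63% of its Myeloid level, in T cell MEM at 7.86% and in T cell EFF at 5.70%, and *Sirpa* there at 11.2%, 10.4% and 5.83% of its own. None of the 5 list genes was at 0 in these 3 labels. Whether Myeloid transcripts from other cells made up the *Sirpa* counts there was not tested.

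*Cd24a* was shared by B cells and DC. B cells had 358 CPM (M1), 337 (M2), 399 (M5) and 356 (M6), and DC had 223, 373, 328 and 336. B cells were higher in 3 libraries and DC in M2, so the 2 labels could not be ordered. Both were above Myeloid (41.2 CPM, libraries 20.5 to 53.1) without overlap, DC by 7.71-fold. The other labels had at most 10.1 CPM, and Stroma had 0.728 CPM. Thinned shares were 44.6% in B cells (35.2 to 54.3), 34.7% in DC (30.7 to 38.88), 8.68% in Myeloid and 0.173% in Stroma.

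*Siglecg*, the Siglec that binds CD24 in the mouse, had its highest level in B cells. It had 233 CPM (M1), 280 (M2), 174 (M5) and 365 (M6), from 119 UMIs in 124 cells. These were 13.2% of its 900 UMIs, since B cells are few, and DC held 192, Stroma 331 and Myeloid 140. DC were next with 27.4, 26.5, 17.6 and 21.5 CPM. All B cell values lay above all DC values, and the pooled ratio was 11.4. Myeloid had 3.68 CPM and none of the other labels ranked more than 1.25. Thinned, 40.2% of B cells (31.0 to 49.9) and 4.82% of DC (3.17 to 6.99) carried a UMI. In NKT 0 of 713 cells had a UMI at this depth, which allows a share of up to 0.421% of cells with a UMI, and 1 of 781 had one at full depth. This limits cells with a UMI, not cells that express the gene. B cells thus carried both the ligand and the receptor transcript. At 2000 UMIs a cell, 22 of 112 B cells (19.6%) had a UMI of both, 28 of *Cd24a* alone and 23 of *Siglecg* alone, and in DC both were found in 6 of 539 cells.

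**Figure D1:**
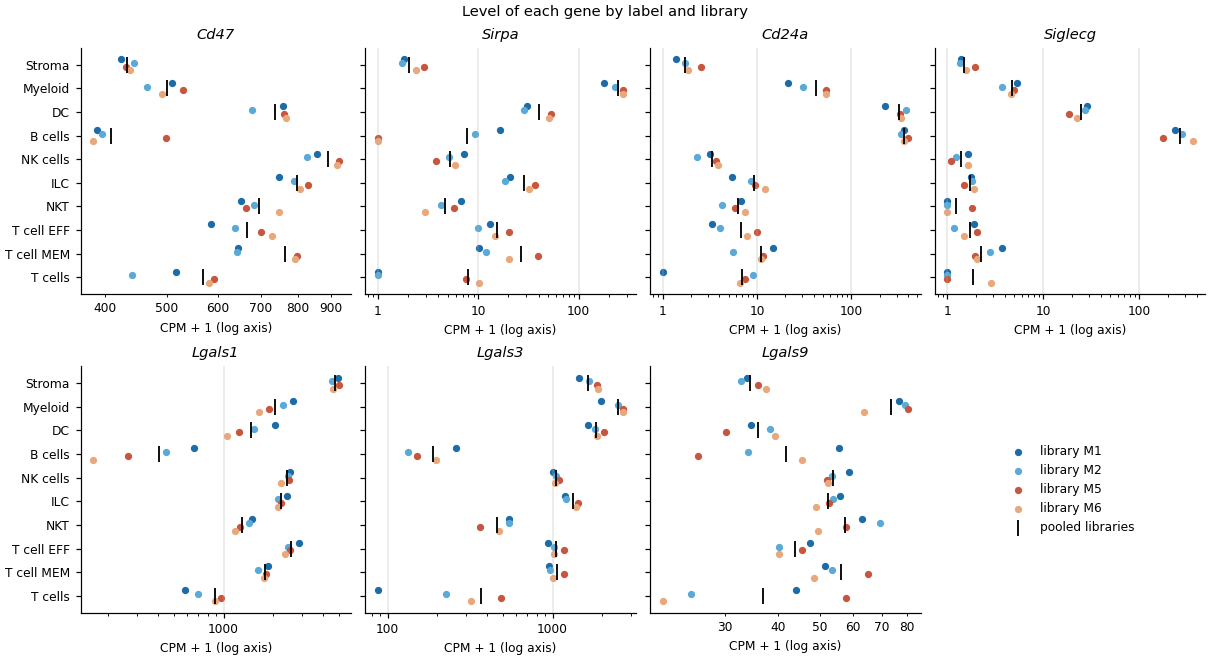
Level of each gene (CPM + 1, log axis) under the 10 labels with at least 100 cells. Points are the 4 libraries and bars the pooled cells. *Sirpa* stands out in Myeloid, *Siglecg* in B cells and *Cd24a* in both B cells and DC, while *Cd47* and *Lgals9* differ 2.18-fold over the labels.

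*Lgals1* was highest under the Stroma label among the 10 labels, and was also found at high levels in lymphocytes. Stroma had 4949 CPM (M1), 4518 (M2), 4971 (M5) and 4592 (M6). Its cells, 46.2% of all cells and the deepest label with a median of 40692 UMIs, held 86.8% of the 3791486 *Lgals1* UMIs. Over all cells *Lgals1* was 4142 CPM. T cell EFF followed at 2867, 2465, 2527 and 2351 CPM. The ranges did not overlap and Stroma was 1.86-fold higher. NK cells (2414 CPM), ILC (2224) and Myeloid (2044) came next, and B cells were lowest of the 10 labels at 402 CPM. The 37 cells labelled Stem cells, too few for the order, had 6006 CPM. In B cells *Lgals1* was 661 CPM (M1), 444 (M2), 262 (M5) and 160 (M6). In DC it was 2035, 1531, 1241 and 1046, and in Myeloid 2617, 2284, 1889 and 1644. These labels and NKT, 4 of the 10, had the same order of libraries, with M1 and M2, the libraries richest in Stroma cells, on top. The other 6 did not, and in T cells M1 and M2 were lowest (580, 695, 959 and 885 CPM). The stromal list (*Col1a1*, *Col1a2*, *Col3a1* and *Dcn*) in Myeloid, at 253, 181, 72.8 and 104 CPM, was likewise higher in M1 and M2, as it was in DC (279, 311, 71.6 and 26.1 CPM) and in NKT (110, 84.3, 32.8 and 23.95 CPM). In B cells the list did not follow this order, with 62.2, 82.3, 149 and 35.6 CPM, and none of its 4 genes was at 0 in B cells, DC or Myeloid. What the Stroma cells' RNA added to *Lgals1* in the other labels was not tested.

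*Lgals1* and that list were each taken as percent of their Stroma level, with libraries pooled. The list was uneven within Stroma, at 5704.5 CPM in cells high in *Col3a1* and 1003 CPM in the others (split below). *Lgals1* was 4204 and 4810 CPM in the same cells, so the list does not follow *Lgals1* within Stroma. By library the list ran from 4.2% (M5) to 20.9% (M1) in ILC and from 2.85% (M5) to 17.2% (M1) in T cell EFF. The stromal list stood in NK cells at 5.20% of its Stroma level and *Lgals1* at 50.8%. In T cell EFF the values were 9.83% and 53.7%, in ILC 12.3% and 46.8%, and in T cell MEM 1.68% and 37.2%. In NKT they were 3.52% and 27.1%, and in T cells 2.94% and 18.5%. B cells, with the list at 5.39% and *Lgals1* at 8.45%, and the 55 cells labelled T cell Naive, with 5.49% and 9.76%, had the 2 values closest together. Thinned, 95.2% of T cell EFF and 92.9% of NK cells carried an *Lgals1* UMI, against 37.5% of B cells (28.5 to 47.1), and 96.0% of Stroma cells.

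*Lgals3*, the macrophage galectin, was highest in Myeloid with 1957 CPM (M1), 2502 (M2), 2688 (M5) and 2689 (M6). DC had 1637, 1819, 2038 and 1860 CPM and Stroma 1438, 1653, 1851 and 1897. Myeloid was above DC within each library, although the M1 value of Myeloid fell inside the DC range, and DC and Stroma overlapped. M1 was lowest in all 3 labels. Stroma was above ILC (1324 CPM) and ILC above T cell MEM (1063 CPM) without overlap. T cell MEM, T cell EFF (1050 CPM) and NK cells (1048 CPM) could not be ordered. NKT (460 CPM), T cells (365) and B cells (187) were lowest, and 1 cell held 33.5% of the *Lgals3* UMIs of T cells. Thinned shares were 86.5% in Myeloid and 86.4% in Stroma, and 46.4% in NKT, 33.0% in B cells and 29.8% in T cells.

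*Lgals9* was low and even. Myeloid had 75.8 CPM (M1), 78.3 (M2), 79.7 (M5) and 62.6 (M6), the highest label in each library, and Stroma the lowest pooled level, 33.3 CPM. NKT (56.3), T cell MEM (55.2), NK cells (52.7) and ILC (51.5) lay between and overlapped with their neighbours. ILC were above T cell EFF (42.7 CPM) without overlap. Thinned, 12.3% of Myeloid cells (11.04 to 13.6) and 6.45% of Stroma cells (6.07 to 6.85) carried a UMI. Without thinning the shares were 43.4% in Myeloid and 59.9% in Stroma, whose cells had a median of 40692 UMIs against 8027, so the order of the raw shares ran against the CPM.

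**Figure D2:**
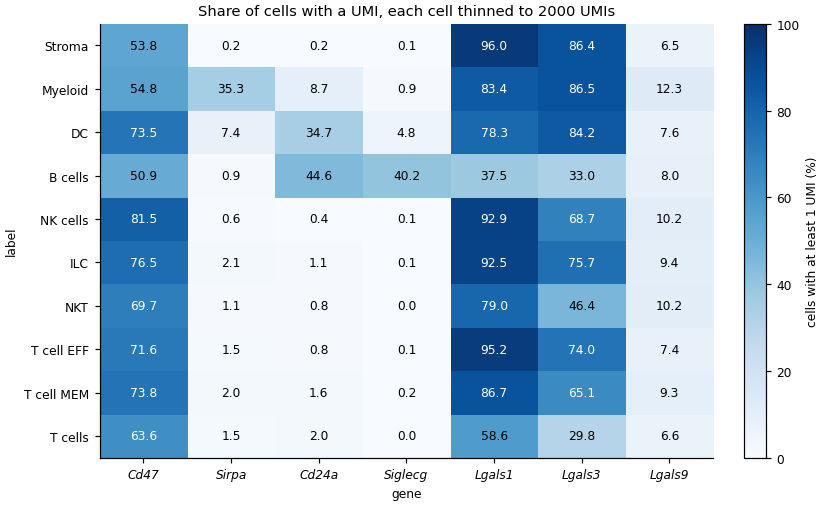
Percent of cells with at least 1 UMI of each gene (columns) under the 10 labels with at least 100 cells (rows), after each cell was thinned to 2000 UMIs. *Sirpa* reaches 35.3% in Myeloid and *Siglecg* 40.2% in B cells, while the lowest share of *Cd47* is 50.9%, in B cells.

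**Figure D3:**
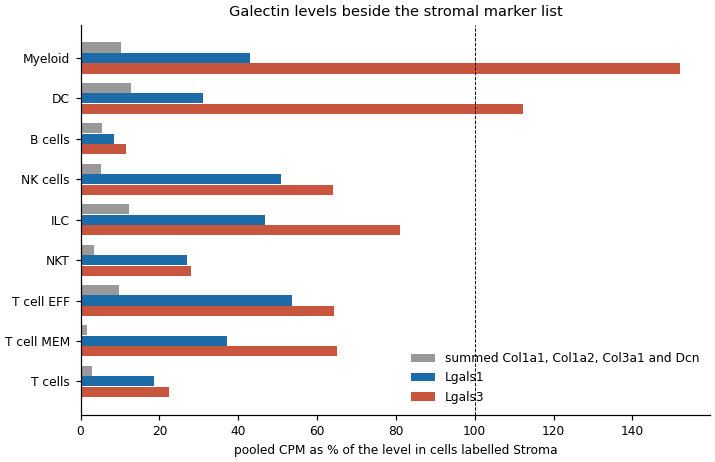
Pooled CPM of *Lgals1*, of *Lgals3* and of the summed stromal list, each as percent of its level in Stroma, for the other 9 labels with at least 100 cells. The list is at most 12.8% in these, *Lgals1* is 50.8% in NK cells and 53.7% in T cell EFF, and *Lgals3* is above 100% in Myeloid and DC.

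Across the members, 6 of 7 had the same highest label in each of the 4 libraries, all but *Cd24a*, against 32.1% of the 10053 genes with at least 10 CPM in some label. The 4 values of the highest label all exceeded those of the next label for 3 members, *Sirpa*, *Siglecg* and *Lgals1*, against 30.4% of those genes. The tau index, which is 0 for equal levels under all labels and 1 for a gene of one label, was 0.987 for *Siglecg*, 0.942 for *Sirpa* and 0.877 for *Cd24a*. It was 0.648 for *Lgals1*, 0.600 for *Lgals3*, 0.384 for *Lgals9* and 0.305 for *Cd47*. All genes tested had a median of 0.463 and quartiles of 0.315 and 0.672, so the 2 receptors and *Cd24a* lay above the upper quartile and *Cd47* below the lower one.

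Within DC some members differed in level between sets of cells formed on other transcripts. After thinning, 55 DC carried 2 or more UMIs over *Xcr1* and *Clec9a*, genes of cross-presenting cDC1. Another 66 carried no UMI of these and 2 or more over *Cd209a*, *Clec10a* and *Mgl2*, genes of cDC2 and monocyte-derived DC. A further set of 126 carried 2 or more over *Ccr7*, *Fscn1* and *Ccl22*, genes of mature, migrating DC, and 71 carried 2 or more UMIs of *Siglech*, a plasmacytoid DC gene. The last set was chosen after the values were seen. The sets shared cells and together held 281 of 539 DC with enough UMIs. The *Cd209a* set itself had 316 CPM of *Siglech* and 434 CPM of *Ccr7*, so it was a mixture.

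*Cd24a* was highest in the *Xcr1*/*Clec9a* set, with 448 CPM (M1), 653 (M2), 636 (M5) and 653 (M6). The *Cd209a* set had 24.4, 496, 25.8 and 99.8 CPM. M2 stood apart there, and its value made the ranges overlap. The log2 difference was 2.04 with M2, 3.65 without it, and 3.07 when the sets were formed from all UMIs of a cell. The *Ccr7* set, at 88.0, 118, 96.3 and 163 CPM, was below the *Xcr1*/*Clec9a* set without overlap, by 4.82-fold. With sets formed from all UMIs this was 2.48-fold (508 against 205 CPM), also without overlap. The *Siglech* set had 55.8 CPM.

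*Sirpa* showed the reverse. The *Xcr1*/*Clec9a* set had 4 *Sirpa* UMIs in all, with 0 CPM (M1), 7.0 (M2), 3.4 (M5) and 0 (M6). The *Cd209a* set had 53.7, 88.8, 107 and 122 CPM. Pooled levels were 3.38 CPM (exact Poisson 95% interval 0.921 to 8.66, counting error only) and 93.1 CPM, and with sets formed from all UMIs 8.21 and 86.5 CPM, a ratio of 10.5, again without overlap. The *Ccr7* set had 35.9, 32.3, 80.2 and 64.6 CPM and the *Siglech* set 98.9, 135, 183 and 165 CPM. No value of the *Xcr1*/*Clec9a* set reached those of the other sets. Cell by cell, 32 of the 55 *Xcr1*/*Clec9a* cells had a *Cd24a* UMI and 0 had a *Sirpa* UMI at 2000 UMIs a cell, which allows a share of up to 5.45% of cells with a UMI at that depth. Over all DC, 182 cells had *Cd24a* alone, 35 *Sirpa* alone and 5 both.

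*Cd47* also differed between the sets. The *Xcr1*/*Clec9a* cells had 520 CPM (M1), 457 (M2), 663 (M5) and 780 (M6), below the *Cd209a* set (888, 930, 787 and 987 CPM) in every library and without overlap. The *Ccr7* set had 884, 811, 799 and 844 CPM. The *Siglech* cells had 1800, 1439, 1612 and 1477 CPM, above the pooled level of any label. They shared 17 cells with the *Cd209a* set. Median depth was 19983 UMIs in *Xcr1*/*Clec9a* cells, 9895 in the *Cd209a*, 10456 in the *Ccr7* and 7656 in the *Siglech* set. The part of depth and of shared cells in the *Cd47* differences was not tested. *Siglecg* was 13.5 CPM in the *Xcr1*/*Clec9a* cells and 49.8 in the *Ccr7* set, which also had the least *Lgals9* of the 4 sets (18.1 CPM, against 47.3 in *Xcr1*/*Clec9a* cells). With sets formed from all UMIs *Lgals9* was 37.4 against 27.8 CPM. *Lgals1* and *Lgals3* overlapped in both comparisons. Between the *Xcr1*/*Clec9a* and *Cd209a* sets the libraries did not overlap for 2 of 7 members, *Cd47* and *Sirpa*, against 12.5% of 7939 genes. Between the *Xcr1*/*Clec9a* and *Ccr7* sets this held for 5 of 7, *Cd47*, *Sirpa*, *Cd24a*, *Siglecg* and *Lgals9*, against 18.5% of 7730 genes. When all UMIs formed the sets, *Cd47* and *Lgals9* overlapped in the latter comparison, while *Cd24a* and *Siglecg* no longer did in the former. No share over all genes was taken for sets formed from all UMIs. In both comparisons *Sirpa* passed the 10 CPM filter only through the set where it was the higher, so its place in these counts supports nothing. The sets hold 10 to 45 cells a library.

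**Figure D4:**
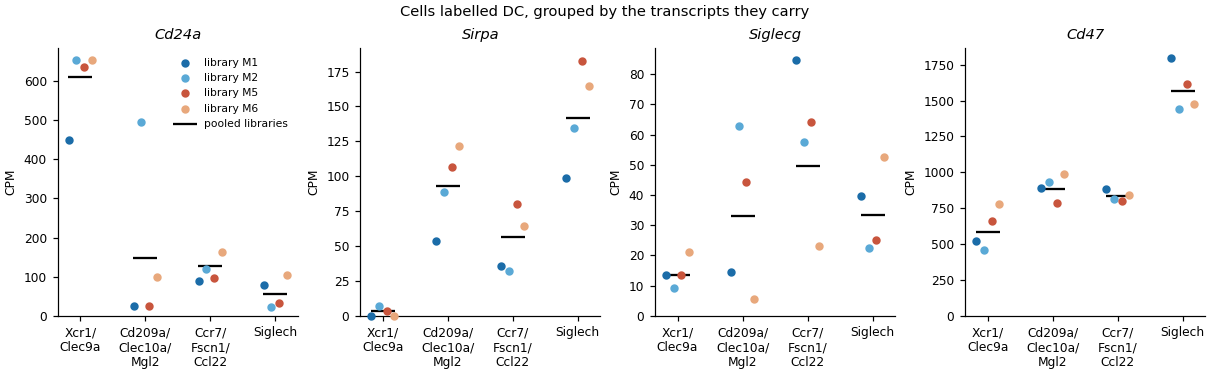
Levels (CPM) of *Cd24a*, *Sirpa*, *Siglecg* and *Cd47* in DC grouped by the transcripts they carry. Points are libraries and bars the pooled cells. *Xcr1*/*Clec9a* cells have the most *Cd24a* and the least *Sirpa*, and *Siglech* cells the most *Cd47*.

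Myeloid cells were split at 1000 CPM of summed *C1qa*, *C1qb* and *C1qc*, complement genes of macrophages, into 686 high and 1861 low cells, with 374 cells within 500 CPM of that limit. None of 6 members tested was without overlap, against 20.7% of 8093 genes. *Sirpa* was higher in the C1q-high cells of all 4 libraries (234, 274, 329 and 275 CPM, against 128, 195, 249 and 273), a pooled ratio of 1.22. *Lgals3* was lower in them in all 4 libraries (1636, 2113, 2510 and 2542 CPM, against 2249, 2802, 2792 and 2760). The ranges overlapped for both genes, and the direction was the same in each library. *Cd24a* was 25.7 CPM in C1q-high and 50.1 CPM in C1q-low cells, with the lower value in 3 of 4 libraries. The neutrophil genes *S100a8* and *S100a9* together were 690 CPM in C1q-high and 1642 CPM in C1q-low cells, and the mast cell genes *Cpa3* and *Kit* 20.4 and 444 CPM, so the low set held transcripts of other myeloid cells. Their part in the differences of the members was not tested. After thinning, 819 of 2547 Myeloid cells (32.2%) had both *Lgals3* and *Sirpa*, and 518 (20.3%) both *Cd47* and *Sirpa*.

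Stroma cells were split at 500 CPM of *Col3a1*, a fibrillar collagen gene, into 1777 high and 13865 low cells. At 2000 UMIs the split is between 1 UMI and none, and 1229 cells had exactly 1. The stromal list, which includes *Col3a1*, was 5704.5 CPM in the high and 1003 CPM in the low cells. *Mki67* was 48.0 and 77.5 CPM and *Ptprc* 9.90 and 7.22 CPM. Which of these cells were implanted CT26 cells was not tested. *Cd47* was 544, 560, 588 and 570 CPM in the *Col3a1*-high cells and 409, 432, 419 and 427 CPM in the others, 1.32-fold higher without overlap. *Lgals9* was 44.8, 42.4, 41.5 and 53.7 CPM against 31.4, 30.5, 34.4 and 35.2, 1.39-fold higher without overlap. These 2 of 4 members tested compare with 44.6% of 7831 genes, so a lack of overlap was common between the 2 kinds of Stroma cell. *Lgals1* and *Lgals3* went the other way in all 4 libraries, with pooled levels of 4204 against 4810 CPM and 1345 against 1664 CPM, and overlapped. With *Col3a1* read from all UMIs, which left 574 high cells, they were 3542 against 4785 CPM and 1151 against 1647 CPM without overlap. No share over all genes was taken for these sets. *Sirpa* was below the 10 CPM filter in both, at 5.46 and 0.597 CPM, and in the sets from all UMIs it was 19.6 and 0.581 CPM. It passed the filter there only through the *Col3a1*-high cells, where it was the higher, so its lack of overlap supports nothing.

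Among cells with a UMI of *Cd3d*, *Cd3e* or *Cd3g* in the T cell EFF, T cell MEM, T cells and NKT labels, 460 carried a UMI of *Foxp3*, the transcription factor of regulatory T cells, after thinning, and 5024 did not. *Lgals3* was lower in the *Foxp3* cells, at 435 CPM (M1), 669 (M2), 636 (M5) and 404 (M6), against 896, 992, 1123 and 991 CPM in the rest. The ranges did not overlap and the rest had 1.92-fold more. Within labels the pooled levels with and without *Foxp3* were 712 and 1047 CPM in T cell EFF, 560 and 1078 in T cell MEM, 346 and 501 in NKT, and 226 and 267 in T cells. Of the 460 *Foxp3* cells T cell EFF gave 108, T cell MEM 104, NKT 180 and T cells 68. Of the 5024 others they gave 3361, 1020, 518 and 125. *Lgals3* was higher with *Foxp3* in M2 of T cell EFF (1043 against 1013 CPM) and M5 of NKT (365 against 359). In T cells this held for M1 (163 against 74.2 CPM, the former from 1 cell) and M5 (266 against 153). When *Foxp3* was read from all UMIs of a cell, which made 860 cells positive, the levels were 826 and 1042 CPM, the log2 difference was -0.33 in place of -0.94, and the libraries overlapped. The share of cells with an *Lgals3* UMI at equal depth was 43.3% and 69.3%. *Foxp3* cells were shallower, with a median of 5348 against 8348.5 UMIs, and the Myeloid list, none of whose 5 genes was at 0, stood at 402, 116, 510 and 282 CPM against 426, 361, 616 and 402. The part of label mix, of Myeloid transcripts and of depth in the *Lgals3* difference was not tested.

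*Cd47* was higher in the *Foxp3* cells, at 925, 793, 762 and 837 CPM against 600, 637, 718 and 737 CPM. The ranges did not overlap, and the pooled ratio was 1.18. Within the T cells label it was the lower of the pair, 540 against 598 CPM. *Cd24a* was 13.2 CPM in *Foxp3* cells and 5.81 CPM in the rest, from 51 UMIs in the former, and did not overlap. These are 3 of 6 members tested, against 24.2% of 7997 genes. With *Foxp3* read from all UMIs each of the 3 overlapped, while *Lgals9* did not (50.7 against 44.2 CPM). No share over all genes was taken for the sets from all UMIs. *Cd24a* passed the 10 CPM filter only through the *Foxp3* cells, where it was the higher, so its lack of overlap supports nothing. The other 2, *Cd47* and *Lgals3*, passed it in both sets. *Lgals1*, at 1684 and 2306 CPM, was lower in the *Foxp3* cells of all 4 libraries but overlapped. Within T cell EFF it was 2389 and 2478 CPM, and within NKT 1254 and 1317. Within T cell MEM it was 1376 and 1820 CPM, and within T cells 740 and 844. The stromal list was 32.2, 364, 27.6 and 18.2 CPM in the *Foxp3* cells and 192, 128, 28.5 and 121 CPM in the rest. The part of label mix and of Stroma RNA in the *Lgals1* difference was not tested. *Lgals9* was 46.6 and 45.9 CPM. M1 gave 25 and M2 45 of the *Foxp3* cells.

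Cycling T cell EFF, with a UMI of *Mki67* or *Top2a* after thinning, numbered 1117, against 2428 without. Of 5 members tested 1, *Sirpa*, did not overlap, against 15.8% of 7913 genes. It was 15.5, 16.0, 25.5 and 20.6 CPM in cycling cells and 9.39, 3.66, 15.1 and 9.99 CPM in the others. Cycling cells were deeper, with a median of 15028 against 9114 UMIs, and their *Lyz2*, a Myeloid marker, was 479 against 298 CPM and *Csf1r* 10.0 against 5.02 CPM. The part of Myeloid transcripts in the *Sirpa* difference was not tested. The Myeloid list, with none of its 5 genes at 0, was 609 against 364 CPM. With cycling read from all UMIs *Sirpa* was 17.7 against 4.04 CPM. It passed the 10 CPM filter there only through the cycling cells, where it was the higher, so its lack of overlap in those sets supports nothing. *Lgals1* did not overlap in them (2641 against 2292 CPM), and no share over all genes was taken for them. *Lgals3* was lower in cycling cells of all 4 libraries, pooled 913 against 1149 CPM, and overlapped.

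**Figure D5:**
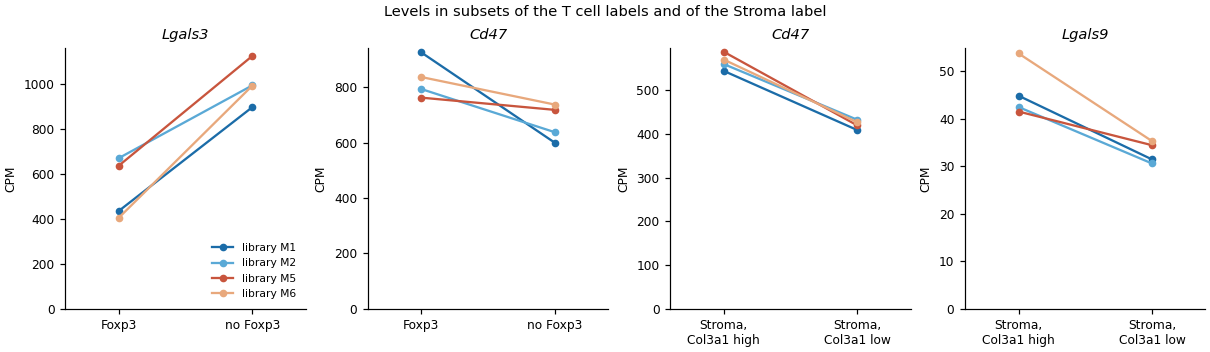
Paired levels (CPM) of *Lgals3* and *Cd47* in *Cd3*-positive cells of the T cell labels with and without a *Foxp3* UMI, and of *Cd47* and *Lgals9* in Stroma cells high or low in *Col3a1*. Each line is a library. All 4 lines run the same way in each panel, where the T cell labels are pooled.

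Other genes of the same pathways came from 5 lists of 32 genes, of which 27 reached 10 CPM in some label. Of these, 18 had the same highest label in every library and 15 were without overlap with the next, where the shares over all genes were 32.1% and 30.4%. Among the 15, *Sirpb1a*, *Sirpb1b*, *Sirpb1c*, *Siglec1*, *Cd22*, *Mertk* and *Stab1* reached 10 CPM only in their highest label. They passed the filter only there, so their place in both counts supports nothing. In pooled libraries 12 of the 27, and the members *Sirpa*, *Lgals3* and *Lgals9*, were highest in Myeloid, against 9.62% of all genes tested. Of the 12, *Sirpb1a*, *Sirpb1b*, *Sirpb1c*, *Siglec1*, *Mertk*, *Stab1* and *Gas6* reached 10 CPM only in Myeloid. Their place in this count therefore supports nothing. The activating relatives of SIRPα followed it: *Sirpb1c* (54.5 CPM), *Sirpb1b* (24.3) and *Sirpb1a* (10.4) were highest in Myeloid. These genes are close in sequence to each other and to *Sirpa*, so their split of reads is uncertain. *Thbs1*, whose product thrombospondin-1 also binds CD47, was 310 CPM in Myeloid and 36.9 CPM in ILC, the next label. *Ptpn6*, encoding SHP-1, was highest in B cells (194 CPM) and *Ptpn11*, encoding SHP-2, in T cell MEM (65.4), each overlapping the next label.

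Of the other Siglecs, 4 of 6 were tested, and each was highest under the same label in all 4 libraries without overlap: *Cd22* in B cells (102 CPM), *Siglech* in DC (181), and *Siglec1* (21.9) and *Cd33* (20.03) in Myeloid. Over all genes tested the shares were 32.1% for the same label and 30.4% for no overlap. *Cd22* (2.97 CPM in the next label) and *Siglec1* (2.50) passed the 10 CPM filter only where they were highest, so their calls support nothing. *Siglece* and *Siglecf* stayed below 10 CPM. Of the other galectins, *Lgals7* was 453 CPM in Stroma and 212 CPM in DC, where libraries ran from 65.4 to 542 CPM. *Lgals8* had 60.03 CPM in Myeloid, overlapping B cells, and *Lgals3bp*, a galectin-binding glycoprotein, had 141 CPM in ILC and 140 in NK cells, which could not be ordered. *Lgals2*, *Lgals4* and *Lgals12* stayed below 10 CPM. Among counter-receptors, *Cd44* (390 CPM in Myeloid) and *Ptprc* (1240 CPM in NK cells) were above the next label without overlap. *Havcr2*, encoding TIM-3, and *Lag3* had their highest pooled levels in T cell EFF (120 and 392 CPM), *Mgat5*, which builds galectin-binding glycans, in NK cells (66.7 CPM) and *Spn* in T cell MEM (157 CPM), and these 4 overlapped the next label.

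Of 8 genes that promote clearance, 4 were highest in Myeloid, against 9.62% of all genes tested. *Stab1*, *Mertk* and *Gas6* reached 10 CPM only in Myeloid, so their place in this count supports nothing. *Lrp1*, a receptor of calreticulin, was 130 CPM in Myeloid, *Stab1* 60.4, *Mertk* 14 and *Gas6* 11.4, of which *Gas6* overlapped DC. *Timd4*, a phosphatidylserine receptor, was 195 CPM in DC, and *Mfge8*, which bridges phosphatidylserine to integrins, 115 CPM there with libraries from 48.0 to 265. *Axl* was 188 CPM in Stroma. *Calr*, the eat-me signal calreticulin, was 631 CPM in DC and 629 CPM in Stroma, which could not be ordered.

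The genes most like each member were found by Pearson correlation of log2(CPM + 1) over 38 sums of at least 20 cells of one label and library. These sums share libraries and labels, so the coefficients describe these data only. For *Sirpa* they were the macrophage genes *Ms4a6d* (0.94), *Cd68* (0.94) and *Ccr1* (0.93). *Cd24a* was most like *Wdfy4*, needed for cross-presentation (0.96), and the MHC class II genes *H2-Eb1* (0.95) and *H2-Ab1* (0.95), and *Siglecg* most like *Mzb1* (0.97), *Cacna1e* (0.97) and *Rasgrp3* (0.96). *Lgals1* went with *Anxa2* (0.95), *S100a6* (0.95) and *Tmem237* (0.93), and *Lgals3* with *Tspo* (0.92), *Txn1* (0.92) and *Tns3* (0.92). For *Cd47* they were *Stk32c* (0.90), *Myl6* (0.89) and *Ncald* (0.87), and for *Lgals9*, which was least like any gene, *Rap2c* (0.84), *Raet1e* (0.75) and *Cndp2* (0.74). Between members, *Cd24a* and *Siglecg* had 0.88 and *Lgals1* and *Lgals3* 0.75, while *Cd47* and *Sirpa* had 0.11.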

How the data were processed

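Single-cell mRNA-seq of CD45+-enriched CT26 tumor cells was analysed. The authors counted UMIs with Cell Ranger 3.0.2 on mm10 (GRCm38), set a minimum of 500 UMIs for a cell, and deposited the raw counts per gene and cell with a library and a cell type label, the latter from correlation with ImmGen profiles. No removal of doublets or free RNA is described. Cell sums equalled the deposited totals in all 33961 cells (1220 to 213981 UMIs).

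The 4 libraries match no sample label, so the planned edgeR comparison of treatments was not run, and libraries were not treated as replicates. Counts were summed over cells of a label and scaled to CPM. Labels under 100 cells were left out of orders, and genes under 10 CPM in all groups compared were left out of counts. Groups were called different when their 4 library values did not overlap. Log2 ratios used a pseudocount of 1 CPM. For shares and for the subsets, 2000 UMIs were drawn without replacement from each cell, leaving out 696 shallower cells. Levels of subsets used all UMIs. Exact 95% binomial intervals cover counting error only. Where no cell had a UMI, the limit given is 3 cells of the total. Since 3′ UMI counts are not scaled to length, levels were not compared between genes. Doublets were scored with scrublet in scanpy 1.11.5 (expected rate 0.06) and not removed from the main values. Gene positions came from GENCODE, which held 30464 of the 31053 symbols. Computation used pandas 2.3.3, scipy 1.17.1 and numpy 2.4.6 under Python 3.11.15. Thinning and overlap calls were tested on simulated data. Named genes were all 7 members, 5 pathway lists and the 3 genes most like each member. The members, lists and subsets were chosen with earlier results of these data known. Alternatives left out each library, cells over 10% mitochondrial UMIs or cells of doublet score over 0.25, and changed the thinning, pseudocount, averaging and labels.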

Additional observations from a re-analysis of the deposited data

How the results depend on the processing

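Log2 ratios of each gene between its highest and its next label kept their direction under every alternative except 1. With labels under 100 cells included, Stem cells came before Stroma for *Lgals1*, with a ratio of Stroma to Stem cells of -0.34 in place of 0.90 over T cell EFF. Leaving out each library gave 0.87 to 0.92 for *Lgals1*, 0.38 to 0.48 for *Lgals3* (0.44 with all) and 0.15 to 0.19 for *Cd47* (0.16 with all). Without cells over 10% mitochondrial UMIs the ratios were 0.89 for *Lgals1*, 0.47 for *Lgals3* and 0.14 for *Cd47*, and without cells of high doublet score 1.02 for *Lgals1* and 0.47 for *Lgals3*. A pseudocount of 10 CPM gave 2.38 for *Sirpa* (2.62 with 1 CPM) and 3.06 for *Siglecg* (3.46 with 1 CPM). The cause of these shifts was not tested.

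Between subsets, 3 of 245 alternative values reversed a difference larger than its counting error, all when subsets were formed without thinning. On the log2 scale *Lgals1* in *Xcr1*/*Clec9a* minus *Ccr7* DC became -0.50 from 0.68, *Sirpa* in *Foxp3* cells minus the rest became 1.05 from -0.78, and *Cd47* in cycling minus other T cell EFF became -0.022 from 0.08. Of the rest, 74 moved and 168 did not. Counting differences within their counting error too, the sign changed for 4 of 35 values without thinning, for 3 without M6, and for 1 each without M1, without M2 and without cells of high doublet score. The largest change of a level in the highest label was 1.2-fold, for *Siglecg* in B cells as a mean over cells (322 CPM).

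No paired analysis was possible because the libraries carry no replicate number and match no sample, and the planned edgeR comparison was not run for the same reason. *Siglecg* rests on 119 UMIs in B cells, and the DC subsets on 55 to 126 cells.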
